A study of Rattus norvegicus with 4 samples.

Results

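The 4 syndecan genes (Sdc1 to Sdc4) and the 6 glypican genes (Gpc1 to Gpc6) were followed in poly(A) RNA-Seq data from rat S16 cells. The members were taken by name and not by their values, and make up 10 of the 30708 genes in each library. Sdc1 to Sdc4 and Gpc1 to Gpc5, 9 genes in all, were found under these symbols. Gpc6 was found under LOC691984, a symbol built from the gene number that a newer RefSeq gene table gives to Gpc6. S16 cells are immortalized Schwann cells of the rat, and the labels name a myelinating Schwann cell as their source. The data came from 2 populations of unmodified S16 cells, at passage 9 (the parental cells of enhancer deletion lines that were not analysed here) and at passage 39. Both were grown in the same medium and received no treatment, and each gave 2 libraries labelled as technical replicates 1 and 2, here called the first and the second library. With 1 population per passage, a difference between passages has no replicate check, and a cell line at 1 passage number stands for no other stock of these cells.

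Syndecans and glypicans are the main families of heparan sulfate proteoglycans on the cell surface. Syndecans span the membrane and carry a short cytoplasmic tail, while glypicans are held at the outer face by a lipid anchor. The sugar chains of both bind growth factors, morphogens and matrix proteins and present them to signalling receptors and integrins. In peripheral nerve, syndecan-3 and glypican-1 are known as Schwann cell receptors for a type V collagen chain, and glypican-1 has been linked to myelination in culture.

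Levels were given in RPKM, which divides a gene's reads by its length and by the library total, so levels can be compared between genes. The library totals recovered from the values were between 34246093 and 41382234 reads. Libraries with the same technical replicate number were close to each other across passages, and libraries of the same passage were not. A chi-square of the recovered reads, expected to average 1 per gene from sampling alone, had a mean of 1.15 over 11006 genes between the first libraries of the 2 passages and of 1.43 over 11007 genes between the second. Between the technical replicates of one passage its mean was 77.8 at passage 9 and 74.1 at passage 39. The likeness thus goes against the labels, and whether passage and number were exchanged in them cannot be told apart from these data. The labels were kept as given, all values are set out by passage and by library number, and n = 2 stands for the 2 populations as labelled. Under exchanged labels, each difference between numbers would be a difference between passages, and each SD would be a spread between technical replicates. In a pair of values for one library number, passage 9 is named before passage 39. Of the markers examined, 10 of 10 Schwann cell genes were at 1 RPKM or more on average, with Sox10, a transcription factor of the Schwann cell lineage, at 176 RPKM. The endothelial markers Cdh5 and Kdr, the macrophage marker Ptprc and the neuronal marker Syt1 were listed at 0 in all 4 libraries. Other markers of these lists were present, with the neuronal marker Tubb3 at 56.25 RPKM and the macrophage marker Cd68 at 1.40 RPKM. Of the fibroblast markers, Col1a1 was at 3588 RPKM and Pdgfra at 5.35 RPKM, while Dcn was at 0.0033 RPKM and Thy1 was listed at 0.

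Gpc1 was the highest of the 10 genes, with a mean of 343 ± 3.39 RPKM (SD, n = 2), and ranked 95 among all 30708 genes. Gpc4 followed at 113 ± 0.221 RPKM (rank 475) and Sdc4 at 78.4 ± 0.529 RPKM (rank 817). Below them came Sdc2 at 34.4 ± 0.267 RPKM, Sdc3 at 32.9 ± 0.615 RPKM, Gpc6 at 21.9 ± 0.0606 RPKM and Sdc1 at 15.0 ± 0.586 RPKM (SD, n = 2 for each). The other 3 glypicans were low, with Gpc2 at 1.92 ± 0.122 RPKM, Gpc5 at 0.361 ± 0.0157 RPKM and Gpc3 at 0.184 ± 0.00408 RPKM. The SD over the populations was small because each population mean holds a first and a second technical replicate. In this order, 3 pairs of neighbours had overlapping libraries. Sdc2 was above Sdc3 in 2 of the 4 libraries, Gpc6 above Sdc1 in 2 and Gpc5 above Gpc3 in 3. For the other 6 pairs of neighbours, the lowest library of the higher gene lay above the highest library of the lower gene.

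**Figure D1:**
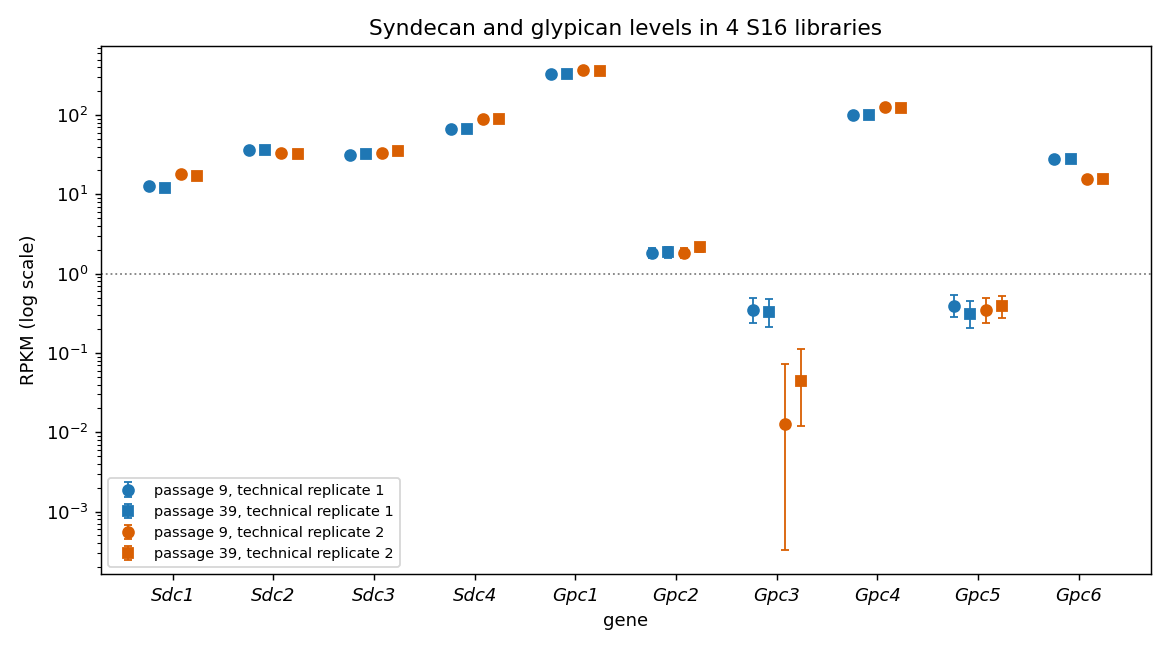
RPKM of the 10 genes on a log axis, with blue for technical replicates 1, orange for technical replicates 2, circles for passage 9 and squares for passage 39. Bars are exact 95% intervals of counting error, which are narrower than the points for most genes. The dotted line is at 1 RPKM, and Gpc3 and Gpc5 lie below it in every library.

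Sdc4, a syndecan known for its place in focal adhesions, measured 67.1 and 66.0 RPKM in the first libraries and 90.4 and 90.0 RPKM in the second. The second libraries of both passages were thus high and the first low, and the 95% intervals of 65.5 to 68.7 and 88.5 to 92.5 RPKM at passage 9 did not overlap. Sdc1, a syndecan best known from epithelial and plasma cells, measured 12.6 and 11.9 RPKM in the first libraries and 18.2 and 17.2 RPKM in the second. It showed the same order as Sdc4, with intervals of 12.01 to 13.3 and 17.4 to 19.0 RPKM at passage 9. Sdc2, a syndecan of mesenchymal cells, measured 36.5 and 35.8 RPKM in the first libraries and 32.8 and 32.7 RPKM in the second. Here the first libraries were the high ones. Sdc3, the syndecan of the nervous system, measured 31.3 and 32.0 RPKM in the first libraries and 33.7 and 34.8 RPKM in the second, so that the second libraries were slightly higher. For all 4 syndecans, the counting intervals of the technical replicates were apart within each passage, and those of libraries with the same number overlapped across passages.

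Gpc1 measured 325 and 327 RPKM in the first libraries and 366 and 354 RPKM in the second. The second libraries were higher in both passages. They also differed from each other by more than counting error, with intervals of 361 to 370.5 RPKM at passage 9 and 349.8 to 359 RPKM at passage 39. Gpc4, a glypican of the same subgroup as Gpc6, measured 100.5 and 101 RPKM in the first libraries and 125 and 124 RPKM in the second. Gpc6 measured 28.2 and 28.0 RPKM in the first libraries and 15.6 RPKM in each of the second. Gpc6 was thus low in the libraries in which Gpc4 was high, and in each case the libraries of the 2 numbers did not overlap. The ratio of Gpc4 to Gpc6 within a library, which no scaling of libraries changes, was 3.56 and 3.62 in the first libraries and 8.03 and 7.95 in the second.

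Gpc2, a glypican known from developing neurons, measured 1.83 and 1.87 RPKM in the first libraries and 1.83 and 2.14 RPKM in the second. Its intervals, from 1.57 at the lowest bound to 2.44 RPKM at the highest, overlapped in every pair compared within a passage or within a number. Gpc5 measured 0.393 and 0.313 RPKM in the first libraries and 0.351 and 0.386 RPKM in the second, on 27 to 41 reads, and its libraries did not separate in either way. Gpc3, the glypican altered in an overgrowth syndrome, measured 0.349 RPKM (32 reads) and 0.329 RPKM (25 reads) in the first libraries. In the second it measured 0.0128 RPKM (1 read) and 0.0439 RPKM (4 reads). The first libraries together held 57 reads and the second 5, a ratio per library total of 11.5 (exact 95% interval 4.64 to 36.7, for counting error only). By passage the ratio was 27.1 (4.53 to 1100.0) at passage 9 and 7.5 (2.59 to 29.6) at passage 39. Gpc3 was under the minimum mean of 1 RPKM used for the test between library numbers, so this ratio stands without that test.

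The make-up of the 2 families was compared as shares of the summed RPKM. Sdc4 held 45.5% and 45.3% of the syndecan sum in the first libraries, and 51.6% and 51.5% in the second. Sdc2 held 24.7% and 24.6% in the first libraries and 18.7% in each of the second. Among glypicans, Gpc1 held between 71.2% and 71.8% in all 4 libraries. The share of Gpc6 was 6.18% and 6.12% in the first libraries and 3.07% and 3.14% in the second, while that of Gpc4 was higher in the second. The summed glypican level was 480 ± 3.56 RPKM and the summed syndecan level 160.8 ± 0.767 RPKM (SD, n = 2).

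**Figure D2:**
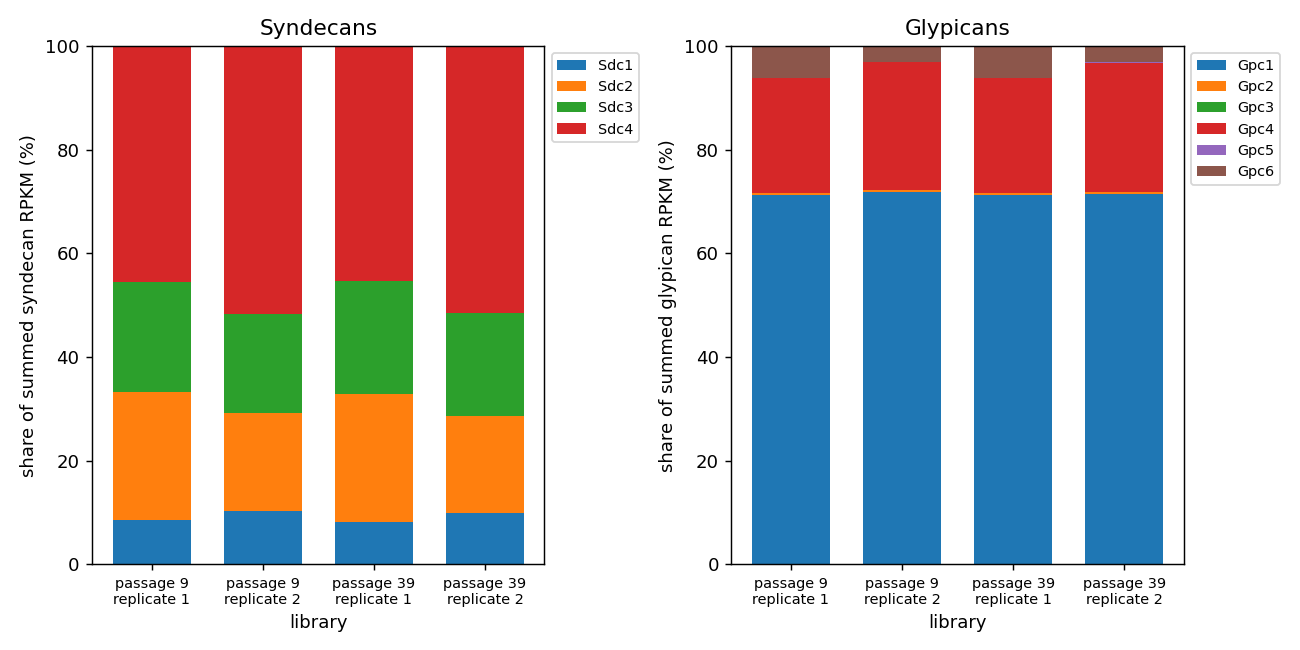
Share of the summed syndecan RPKM (left) and of the summed glypican RPKM (right) held by each gene in each of the 4 libraries, with axes from 0 to 100%. Sdc4 and Gpc1 hold the largest shares, and libraries with the same technical replicate number look alike, with Sdc4 at 45.5% and 45.3% in the first and 51.6% and 51.5% in the second.

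Promoter sequences were available for 7 of the 10 genes in the RefSeq table of the GRCr8 build, a newer build than the authors used. The 250 bases before the start are shown for Sdc1 and Sdc4, both higher in the second libraries, and for Gpc4 and Gpc3, glypican genes of the same chromosome that went opposite ways between the numbers. Capitals mark each GGGCGG or its reverse complement (the GC box bound by Sp factors) and each TATAA or its reverse complement. Both strands were searched, and adjoining matches run together.

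Sdc1 (chr6:37281791-37282040, plus strand): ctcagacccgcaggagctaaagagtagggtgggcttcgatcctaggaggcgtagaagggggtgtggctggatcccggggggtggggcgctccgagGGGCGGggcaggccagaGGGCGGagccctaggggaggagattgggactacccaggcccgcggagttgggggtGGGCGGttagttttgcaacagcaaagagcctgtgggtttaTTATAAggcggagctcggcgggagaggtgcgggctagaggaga

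Sdc4 (chr3:173592924-173593173, minus strand): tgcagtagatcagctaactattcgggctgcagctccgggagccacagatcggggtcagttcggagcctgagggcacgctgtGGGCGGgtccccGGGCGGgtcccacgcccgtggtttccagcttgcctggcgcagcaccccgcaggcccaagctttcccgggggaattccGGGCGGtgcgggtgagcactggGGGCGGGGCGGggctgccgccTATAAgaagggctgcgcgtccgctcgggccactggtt

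Gpc4 (chrX:136676058-136676307, minus strand): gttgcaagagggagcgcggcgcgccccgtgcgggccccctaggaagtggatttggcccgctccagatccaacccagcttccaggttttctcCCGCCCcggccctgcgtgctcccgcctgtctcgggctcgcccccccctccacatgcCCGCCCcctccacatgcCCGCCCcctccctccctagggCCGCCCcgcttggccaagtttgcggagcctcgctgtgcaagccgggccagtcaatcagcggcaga

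Gpc3 (chrX:137157599-137157848, minus strand): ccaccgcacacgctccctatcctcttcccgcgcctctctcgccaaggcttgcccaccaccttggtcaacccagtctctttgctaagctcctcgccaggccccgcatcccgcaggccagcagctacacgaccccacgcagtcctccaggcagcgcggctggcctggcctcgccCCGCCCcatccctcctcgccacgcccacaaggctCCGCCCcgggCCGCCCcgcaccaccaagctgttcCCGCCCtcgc

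The GC box was present in 7 of the 7 promoters, with 5 matches in Sdc4, 4 each in Gpc3, Gpc4 and Sdc3, 3 in Sdc1, 2 in Gpc2 and 1 in Gpc5, against 30.5% of all 33469 promoters of this length that held at least 1. TATAA was present in Sdc1 and Sdc4 only of the 7, beginning 42 and 37 bases before the start, against 24.0% of all promoters. In Sdc1 the TATAA match overlaps its own reverse complement. The CCAAT letters were found in 2 of the 7, Sdc1 and Gpc2, against 34.0% of all promoters, and ACAAAG, a sequence of the kind that SOX proteins bind, in 0 of the 7, against 16.3%. These are matches of letters in a short window and show no binding. Their GC content ranged from 60.8% for Gpc2 to 80.0% for Sdc3, against a median of 51.2% over all promoters.

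Whether the older population differed from the younger was asked first. The 8 members with a mean of at least 1 RPKM were compared on the log2(RPKM + 1) scale, on which a difference of 1 is about 2-fold and the change of low genes is understated. A difference of at least 2-fold between the passages was found for 0 of them, against 0.00907% of the 11025 genes compared (1 gene). The differences lay between -0.07 for Sdc1 and 0.09 for Gpc2, with a median size of 0.018, against 0.027 over all genes. Gpc2 was the single member of the 8 whose libraries did not overlap between the passages, against 6.21% of all genes, and its counting intervals did overlap. For passage 39 minus passage 9 within one library number, Sdc1 gave -0.08 and -0.07 and Sdc3 gave 0.03 and 0.04. Gpc4 and Gpc6 differed by at most 0.02 within either number. With 1 population per passage, no p-value was computed.

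The libraries labelled as technical replicates were compared next, as pairs within the 2 populations, with limma. By the labels the number is not a condition of the study, which holds only if passage and number were not exchanged. The p-values set the mean difference against its spread between the 2 populations, which limma pools with the spread of other genes. They thus rest only in part on how alike the difference of a gene was in the 2 populations. This spread may be technical. Of the 8 members, 7 passed an adjusted p of 0.05, against 74.1% of the 11025 genes. Of these, 5 were higher in the second libraries, against 49.7% of all genes, and 2 were lower, against 24.4%. The libraries of the 2 numbers did not overlap for 7 of the 8, against 87.7% of all genes. The share called among the members was thus close to that of all genes. On this scale 0 of the 8 differed at least 2-fold, against 1.10% of all genes, and Gpc3, under the minimum, was not among the 8. The median size of the difference was 0.22 for the members and 0.21 for all genes. Of all calls, 67.1% were higher in the second libraries, a share that was 53.7% after scaling by the median ratio of the libraries, 43.8% after scaling to a common sum and 48.9% relative to genes of similar length. Against genes of similar length, 12.4% of all calls turned sign.

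Since the median gene was higher by 0.10 in the second libraries as deposited, the members are read against it. Sdc1 was higher by 0.49 (SE 0.033, limma adjusted p = 3.96e-06), or 1.44-fold in RPKM, with 0.49 in each passage. Sdc4 was higher by 0.43 (SE 0.021, adjusted p = 9.03e-07), or 1.36-fold, and Gpc4 by 0.30 (SE 0.020, adjusted p = 4.57e-06), or 1.23-fold. These 3 genes lay above the median gene, and stayed higher in every alternative run. Gpc6 was lower in the second libraries (log2 difference -0.81, SE 0.029, adjusted p = 2.31e-07), with 1.80-fold more RPKM in the first libraries. In size this was larger than or equal to the difference of 97.8% of all genes. Sdc2 was slightly lower, at -0.14 (SE 0.025, adjusted p = 0.0013). Sdc3 at 0.11 (SE 0.026, adjusted p = 0.00447) and Gpc1 at 0.14 (SE 0.019, adjusted p = 0.000233) lay close to the median gene. Their sign turned after scaling to a common sum, at -0.03 for Sdc3 and -0.0036 for Gpc1. Gpc2 did not pass (0.07, SE 0.066, adjusted p = 0.38). Over all genes, this difference was related to gene length, with a Spearman rho of -0.415 across genes, which are not independent replicates. Gpc6 had the longest recovered length of the 10 genes, 6939 bp, and genes of that length had a median difference of -0.10. Relative to genes of similar length, the difference was -0.70 for Gpc6, 0.38 for Sdc1, 0.29 for Sdc4 and 0.19 for Gpc4. For Sdc2 it was -0.24, for Sdc3 0.11 and for Gpc1 -0.05. Gpc1 thus passed in the opposite direction under that correction (limma adjusted p = 0.0278).

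**Figure D3:**
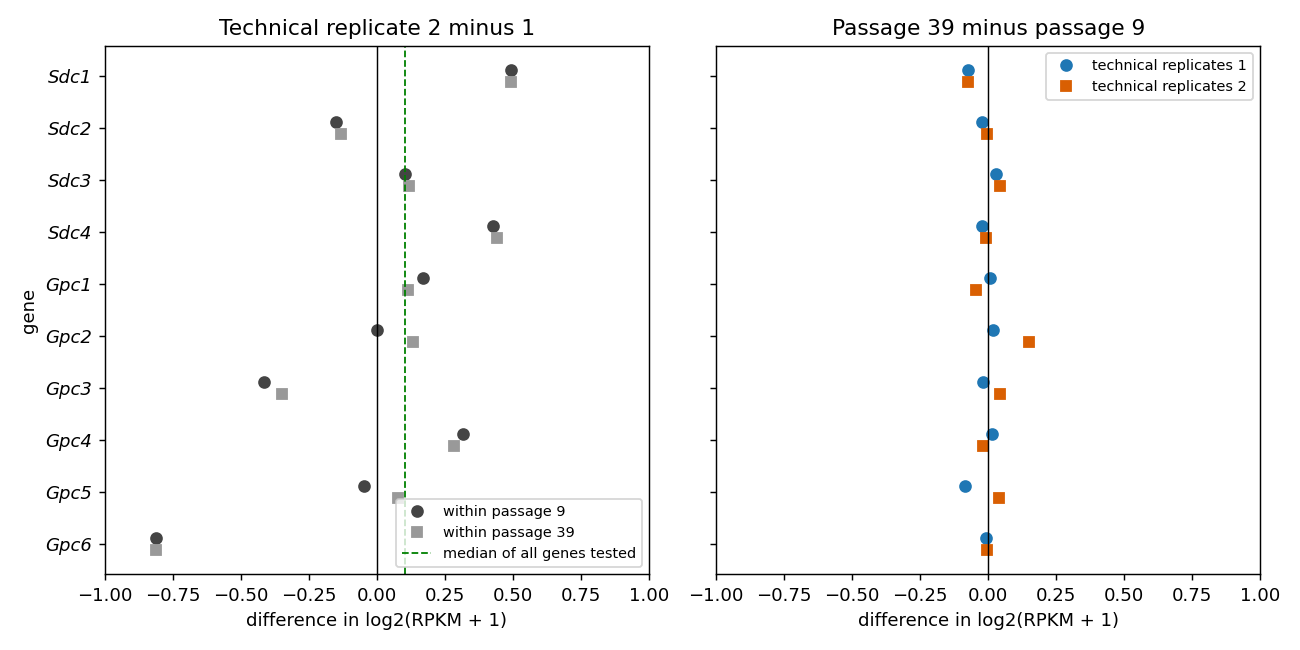
Difference in log2(RPKM + 1) between technical replicates 2 and 1 within each passage (left) and between passages 39 and 9 within each replicate number (right), on the same axis from -1 to 1. The dashed line is the median of all 11025 genes, 0.10. On the left both passages give nearly the same value for most genes, from -0.81 for Gpc6 to 0.49 for Sdc1, and on the right all values lie between -0.09 and 0.15.

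Markers of Schwann cells moved with the library number. Of the 10 Schwann cell markers, 7 were lower and 3 higher in the second libraries, against 24.4% and 49.7% of all genes, and their summed level was 4699 and 4696 RPKM in the first and 3847 and 3797 RPKM in the second. S100b fell by 1.39 on the log2 scale. Of the 3 higher markers, Sox10 at 0.06 and Pmp22 at 0.08 lay below the median gene and gave -0.06 and -0.08 relative to genes of similar length. Of the 6 fibroblast markers, 2 had a mean of at least 1 RPKM, and both were higher in the second (summed level over the list of 3349 and 3364 against 3883 and 3778 RPKM). This sum was carried by Col1a1, which was higher by 0.19. Pdgfra, the other of the 2, was higher by 0.31. Of 4 endothelial markers 0 reached 1 RPKM, with sums between 0.307 and 0.418 RPKM. The macrophage sums lay between 1.48 and 1.62 RPKM and were carried by Cd68. The neuronal sums, between 49.6 and 63.5 RPKM, were carried by Tubb3, with the other 4 neuronal markers under 0.01 RPKM on average. The part of these shifts in the syndecan and glypican differences was not tested, and in bulk RNA fewer cells of a type cannot be told apart from less RNA per cell.

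The genes that build the heparan sulfate chains were expressed along with the core proteins. Their calls between the library numbers, and those of the lists that follow, stand beside 74.1% of all genes called, 49.7% higher and 24.4% lower. Of 11 genes of chain linkage and polymerisation, 9 were at 1 RPKM or more, of which 5 were higher and 2 lower in the second libraries, shares close to those of all genes. The polymerase genes Ext2 and Ext1 were the highest, at 97.1 ± 0.245 and 41.3 ± 0.0870 RPKM (SD, n = 2), followed by B3gat3, a linkage enzyme, at 29.2 ± 0.0232 RPKM. The call of B3gat3 (0.14) turned to -0.05 relative to genes of similar length. Ext2 measured 86.5 and 85.6 RPKM in the first libraries and 108 RPKM in each of the second, and Ext1 was likewise higher in the second, by 0.39 on the log2 scale (limma adjusted p = 7.46e-06). Of the linkage starters, Xylt2 was at 8.44 RPKM, while Xylt1 was at 0.00389 RPKM in 1 library and listed at 0 in the other 3.

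Of 21 genes of chain modification, 20 were matched and 11 were at 1 RPKM or more, with 4 higher and 5 lower in the second libraries. The highest were Papss1, which makes the sulfate donor, at 184 ± 0.592 RPKM, Sulf2, an extracellular sulfatase, at 91.3 ± 0.0881 RPKM and Hs6st1, a 6-O-sulfotransferase, at 58.6 ± 0.561 RPKM. The call of Papss1 (0.09) turned to -0.06 relative to genes of similar length. Sulf1, the relative of Sulf2, was at 0.119 RPKM. Of the sulfotransferases that start sulfation on nitrogen, Ndst1 was at 14.7 RPKM and Ndst2 at 7.01 RPKM, while Ndst3 was at 0.0171 RPKM and Ndst4 was listed at 0. Among the matched 3-O-sulfotransferases, Hs3st5 was at 6.93 RPKM, and Hs3st1, Hs3st2 and Hs3st3a1 were listed at 0. Of the 14 genes of chondroitin sulfate chains, which syndecans can also carry, 11 were at 1 RPKM or more, 4 higher and 4 lower, led by Chsy1 at 31.4, Chpf at 29.9 and Ust at 15.9 RPKM.

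Other proteoglycans with heparan sulfate were counted in the same way. Of 10 such genes, 7 were at 1 RPKM or more, of which 6 were lower and 0 higher in the second libraries, against 24.4% and 49.7% of all genes, with a median difference of -0.42 against 0.10 over all genes. The gene that was not called, Spock2, was at -0.008 (limma adjusted p = 0.921). They were led by Hspg2 (perlecan, a basement membrane proteoglycan), found by its gene number, with 212 RPKM in each first library and 141 and 137 RPKM in the second. Cd44, a hyaluronan receptor, was at 96.8 ± 0.418 RPKM and Nrp1, a semaphorin and VEGF receptor, at 79.6 ± 0.176 RPKM. Tgfbr3 (betaglycan), named here after its values were seen, measured 26.9 RPKM in each first library and 13.5 and 13.9 RPKM in the second. Relative to genes of similar length, 0 of the 6 calls turned sign, but some differences shrank. Hspg2 moved from -0.607 to -0.387 and Agrn, also of this list, from -0.475 to -0.255, while Nrp1 moved from -0.421 to -0.535. Gpc6 and Sdc2 went the same way as the 6 called genes, while Sdc1, Sdc4 and Gpc4 were higher in the second libraries.

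Of 12 genes of shedding and cleavage, 7 were at 1 RPKM or more, with 1 higher and 4 lower in the second libraries. Mmp14, a membrane protease that can cleave syndecan-1, was the highest at 137 ± 2.00 RPKM, and Mmp2, a gelatinase that Mmp14 activates, followed. Mmp2 measured 66.7 and 67.7 RPKM in the first libraries and 16.6 and 16.2 RPKM in the second, a fall of 1.97 on the log2 scale (limma adjusted p = 3.04e-09) and the single gene of the list past 2-fold on the log2(RPKM + 1) scale. Adam10, a sheddase, was at 19.7 ± 0.153 RPKM. Notum, a secreted lipase named here after its values were seen, measured 0.732 and 0.759 RPKM in the first libraries and 2.34 and 2.19 RPKM in the second. In RPKM this exceeded 2-fold, while on the log2(RPKM + 1) scale it was 0.90. Heparanase (Hpse) was at 0.269 RPKM, and Hpse2 and Mmp7 were listed at 0. Of 10 partners of the syndecan tail, 9 were at 1 RPKM or more, with 1 higher and 5 lower. Actn4, an actin crosslinker, was at 236 ± 2.23 RPKM, Sdcbp (syntenin), the scaffold that binds the end of the syndecan tail, at 103 ± 1.17 RPKM and Ezr at 32.1 ± 0.262 RPKM, whereas Sdcbp2 was at 0.0325 RPKM.

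Of 20 heparin-binding ligands, 12 were at 1 RPKM or more, with 5 higher and 5 lower in the second libraries. Fn1 was the highest at 779.9 ± 0.134 RPKM, and its call (-0.19) turned to 0.03 relative to genes of similar length. It was followed by Col5a2 at 428 ± 0.111 RPKM and Thbs1 at 271 ± 1.73 RPKM. Col5a3, a type V collagen chain, was named after its values were seen and did not pass between the numbers (-0.001, limma adjusted p = 0.968). The passages did not overlap, with 188.4 and 188.0 RPKM for passage 9 against 185.4 and 185.5 RPKM for passage 39. The same held for 6.21% of all genes. The log2 difference of Col5a3 between the passages was -0.021, smaller in size than the median of 0.027 over all genes. The growth factors Fgf2, Mdk and Ptn, which bind syndecans, were at 0.229, 0.129 and 0.0315 RPKM, and Hgf was listed at 0. Wnt5a was the single ligand of the 12 past 2-fold on the log2(RPKM + 1) scale, with 1.80 and 1.61 RPKM in the first libraries and 4.40 and 4.67 RPKM in the second (log2 difference 1.03, limma adjusted p = 2.66e-06). Of 18 receptors that work with syndecans or glypicans, 11 were at 1 RPKM or more, with 4 higher and 5 lower. Itgb1 was at 462 ± 3.08 RPKM, Itga6 at 137 ± 0.516 RPKM and Gpr56 at 81.8 ± 1.80 RPKM. Itgb3, an integrin chain that works with syndecan-1, fell by 1.08 (adjusted p = 2.94e-07), with 19.8 and 21.7 RPKM in the first libraries and 9.27 and 9.24 RPKM in the second. Robo1 was listed at 0. No gene of these 8 lists with a mean of at least 1 RPKM was past 2-fold between the passages on that scale.

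**Figure D4:**
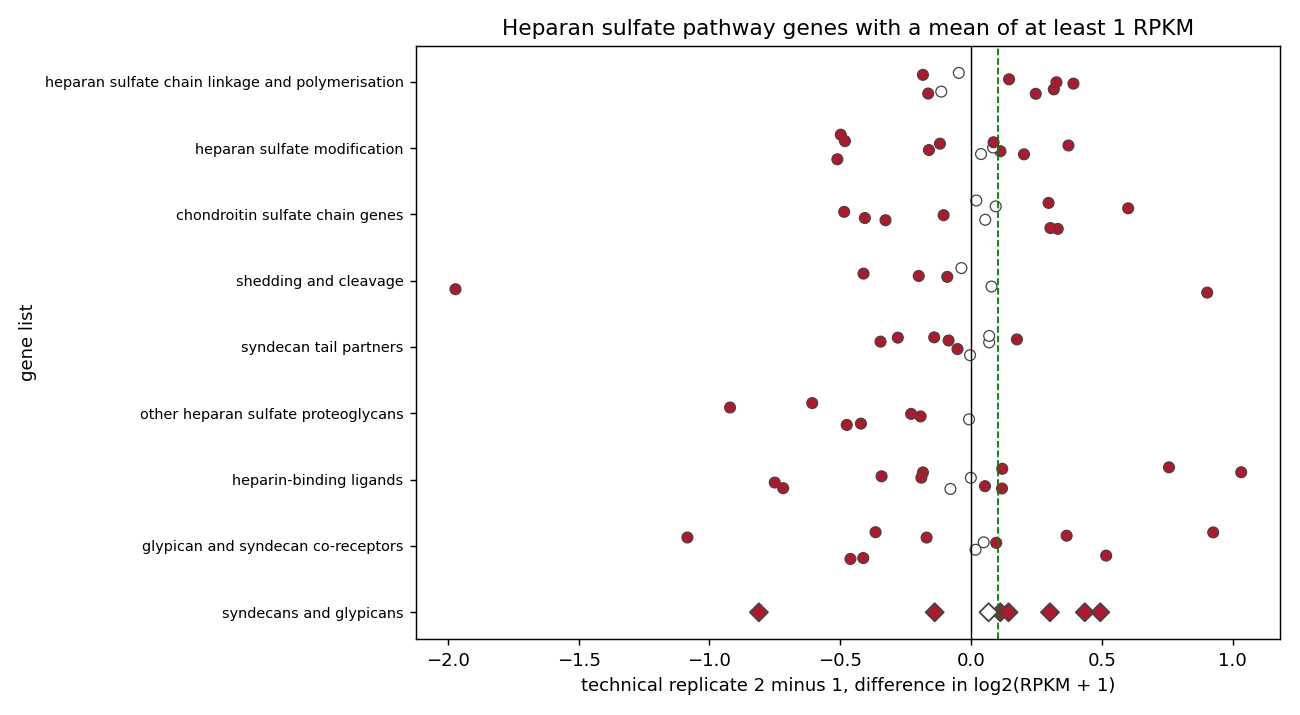
Difference in log2(RPKM + 1) of technical replicate 2 from 1 for each gene with a mean of at least 1 RPKM in 8 lists (circles) and for the syndecans and glypicans (diamonds), with vertical scatter for legibility only. Red symbols passed an adjusted p of 0.05 and white ones did not, and the dashed line is the median of all genes, 0.10. The list of other heparan sulfate proteoglycans lies at or left of 0, while most other lists hold genes on both sides.

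The genes whose levels were most like those of the highest member of each family were found by the distance of log2(RPKM + 1) over the 4 libraries. For Sdc4 they were Pdap1 (distance 0.047), RGD1564963 (0.072) and Mrpl54 (0.077). For Gpc1 they included Cnn3 (0.157, 361 RPKM) and Tuba1a (0.235, 319 RPKM). With 4 libraries that fall into pairs, such likeness describes level and pair alone.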

How the data were processed

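RNA from confluent S16 flasks was made into poly(A) TruSeq libraries and sequenced as 50 bp single reads. The authors used STAR to map reads to the rn5 (Rnor_5.0) rat genome, kept unique alignments, counted with HTSeq ignoring strand, and deposited RPKM values per RefSeq symbol. Overlapping genes thus cannot be separated by strand. Gene lengths and totals per library are not given in the sources used here. The recovered totals per library are above the approximate total per cell line in the study's methods, and the reason was not tested.

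Library totals and whole reads were recovered from ratios of the deposited RPKM values, within 0.01 reads for 18111 of 18114 genes above 0 in at least 2 libraries. A factor common to all 4 libraries can stay hidden, so a recovered length can be too short and an interval too wide. Intervals are exact (Clopper-Pearson, 95%) and cover counting error only.

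Differences used log2(RPKM + 1) and genes averaging 1 RPKM or more (11025 of 30708). Technical replicates 2 and 1 were compared with limma 3.58.1 (R 4.3.3; population as block, mean-variance trend, two-sided, Benjamini-Hochberg over all 11025 genes). Passages were compared without a test. The read recovery and the limma fit were also run on simulated data. Named genes were all members, the 3 highest and any 2-fold different genes of each list, genes listed at 0 where their role matters, the 3 nearest genes of 2 members, and a few named after their values were seen. Xylt1, Xylt2, Ndst1 to Ndst3, Hs3st5, Sulf1, Hpse, Sdcbp2, Spock2, Fgf2, Mdk, Ptn and Egr2 belong to the latter. The members and lists were chosen with earlier results of these data known. Other steps used scipy 1.17.1 and pandas 2.3.3 in Python 3.11.15. Alternatives were other scalings, pseudocounts, minimums, a correction for gene length (20 bins) and each library left out. A few genes that these rules would name are not reported here.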

Additional observations from a re-analysis of the deposited data

Results flagged for a closer look

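Gpc2 had 1 library far from the other 3. The second technical replicate of passage 39, at 2.14 RPKM, was separated from the nearest of the others by 0.887 of the whole range of the 4 libraries. Chance takes the gap past the threshold used, which lies below this value, in about 1 in 20 groups of 4 independent values, and these libraries fall into pairs. The counting intervals of all 4 libraries overlapped.

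For Gpc5, the second technical replicate was below the first at passage 9 (log2 difference -0.0448) and above it at passage 39 (0.0786), on 27 to 41 reads per library. The difference between these effects was not tested, and the counting intervals overlapped.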

How the results depend on the processing

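The number of members called between the technical replicate numbers, 7 of 8, was between 5 and 8 under the 12 alternatives run, with 5 after scaling to a common sum of 1000000, 6 after median-ratio scaling and 8 with no minimum, where Gpc3 entered (log2 difference -0.38, limma adjusted p = 0.000258). The number of members past 2-fold was 0 by passage under every alternative run and 0 by number under all but 1. With no minimum and a pseudocount of 0.1 RPKM together, chosen after seeing the data, it was 1, which is Gpc3, and over all genes 606 by number and 76 by passage. Direction turned for Sdc3 (-0.0319) after scaling to a common sum, for Gpc1 after that scaling (-0.0036) and relative to genes of similar length (-0.0538), and for Gpc2 after both (-0.0394 and -0.0754). Relative to genes of similar length, Gpc1 passed as lower in the second libraries (limma adjusted p = 0.0278). In that run 4 members were called higher and 3 lower. Sdc3 did not pass after median-ratio scaling (0.02). Without single libraries, Gpc2 ranged from -0.0084 to 0.14. Over all genes, 121 differed 2-fold by number, against 244 with a common sum, 253 at a pseudocount of 0.1 RPKM and 83 when genes had to average 5 RPKM. By passage it was 1 gene, 0 with a minimum of 5 RPKM and 9 to 27 without single libraries, which give the passages unequal mixes of library numbers. The passage difference of Gpc6 then ran from -0.47 to 0.46. With the number as a replicate block, the passage difference was 0.08 for Gpc2 and -0.07 for Sdc1, and no call changed. The differences between numbers at passages 9 and 39 correlated across genes at 0.943, but the labels tie no shared day or batch to a number. Values from fewer than about 40 reads, as for Gpc3 and Gpc5, allow no finer comparison.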
